A study of Mus musculus with 4 samples.

Results

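Transcripts of 8 subunits of the GABA-A receptor, *Gabra2*, *Gabra3*, *Gabra4*, *Gabra5*, *Gabra6*, *Gabrg1*, *Gabrg3* and *Gabrd*, were followed across the cell types and neuronal clusters of the mouse posterior hindbrain. The members were given by name and are 8 of the 32285 genes counted. All 8 were described. The tests between groups needed a UMI (unique molecular identifier, 1 captured transcript) in at least 5% of the nuclei, which 6 members passed in neurons and *Gabra6* and *Gabrd* did not.

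The GABA-A receptor is a chloride channel of 5 subunits that opens when GABA binds, and in most mature neurons its opening lowers excitability. The commonest receptors hold α, β and γ subunits and sit at synapses, and the α subunit sets much of the response to GABA and to benzodiazepines. Receptors that hold δ in place of γ, or hold α5, are best known outside synapses, where they respond to low ambient GABA. In the dorsal vagal complex of the hindbrain, which includes the area postrema and the nucleus of the solitary tract and receives signals from the gut and from the circulation, GABA acts on both local and projecting neurons.

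Nuclei came from 4 libraries of single-nucleus RNA-seq, with n = 2 libraries each for control and AgRP-Gq;POMC-Gi. AgRP-Gq;POMC-Gi mice carried AgRP-IRES-Cre+/- and POMC-Dre+/-, which switch on the activating receptor hM3DGq (fl/-) in AgRP neurons and the inhibitory receptor hM4DGi (fl/-) in POMC neurons. Control mice, labelled WT, were offspring of the same crosses that carried both receptor alleles (hM3DGq fl/- and hM4DGi fl/-) but neither recombinase (AgRP-IRES-Cre-/-, POMC-Dre-/-). All mice were adults of both sexes, 12 to 20 weeks old, on a C57BL/6 background, and all had received the ligand CNO at 3 mg per kg 1 h before. The receptors are made only where the driver is or was active, and the driver neurons were not picked out among the hindbrain nuclei. Tissue of the 2 mice of a condition was pooled, and how it was divided between the libraries is not stated, so p-values measure only the spread between these libraries.

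The 39461 nuclei kept by the authors held 48904976 to 53089402 UMIs per library, and 12539 of them were annotated as neurons (2470, 2736, 3696 and 3637 in control replicates 1 and 2 and AgRP-Gq;POMC-Gi replicates 1 and 2, the order used for every set of 4 values here). Any 2 libraries shared at most 36 cell barcodes. Neurons fell into 134 clusters, of which 120 had at least 5 nuclei in every library and were ordered by level. Levels are given as CPM, the UMIs of a gene scaled to 1000000 UMIs of the same nuclei. *Xist*, which female cells express from the silenced X, stood at 507, 319, 541 and 16.2 CPM in neurons. By this gene AgRP-Gq;POMC-Gi replicate 2 stood apart, with few female nuclei, and the 2 libraries of its group were not equal portions of 1 pool. The sex make-up thus differed within that group, and its part in the group differences, with or without this library, was not tested. The named types held their markers: *Syt1* stood at 1348 CPM in neurons and 35.4 CPM in astrocytes, *Aqp4* at 390.2 CPM in astrocytes and 3.81 CPM in neurons, *Pdgfra* at 986.3 CPM in oligodendrocyte precursors and 1.35 CPM in neurons. The annotated cell types were built from expression, so levels across types and clusters are a description and were not tested.

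All 8 genes are transcribed from the minus strand of GRCm38, and several lie side by side. *Gabrg1* (chromosome 5, 70751047 to 70842617), *Gabra2* (70957597 to 71095849) and *Gabra4* (71569749 to 71658308) follow each other, and *Gabra4* overlaps the start of the β subunit gene *Gabrb1* by 0.196 kb. On chromosome 7, the start of *Gabrg3* (56716465 to 57387188) lies 20.483 kb from the end of *Gabra5* (57407672 to 57510059). *Gabra5* overlaps genes transcribed from the opposite strand, *Gm9962* among them. *Gabra3* lies on chromosome X (72432681 to 72656848), *Gabra6* on chromosome 11 (42306437 to 42321072) and *Gabrd* on chromosome 4 (155384980 to 155398112). The spans run from 13.133 kb for *Gabrd* to 670.724 kb for *Gabrg3*, and whether UMIs were counted with regard to strand is not stated in the sources used here, so reads where *Gabra5* and *Gabra4* overlap such genes may be shared between the genes.

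The 250 bases upstream of the annotated starts, from RefSeq on GRCm38.p6, were matched for 7 of the 8 members, *Gabrd* having no entry. The 4 printed here belong to *Gabra2* and *Gabrg1*, neighbours on chromosome 5 with their highest levels in astrocytes, to *Gabra6*, whose UMIs came almost entirely from 1 cluster, and to *Gabrg3*, which starts head to head with the antisense gene *Gm9962*. They are the minus strand of chr5:71095850-71096099, chr5:70842618-70842867, chr11:42321073-42321322 and chr7:57387216-57387465, read 5′ to 3′, and capitals mark matches on either strand to a GC box, a TATA box or a nuclear factor I half-site, spelled out with the shares after the sequences.
Gabra2: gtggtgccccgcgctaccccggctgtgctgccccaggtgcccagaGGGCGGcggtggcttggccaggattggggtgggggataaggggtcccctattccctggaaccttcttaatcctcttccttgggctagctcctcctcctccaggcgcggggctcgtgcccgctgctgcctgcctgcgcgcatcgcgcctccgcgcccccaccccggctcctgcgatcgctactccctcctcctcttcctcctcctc
Gabrg1: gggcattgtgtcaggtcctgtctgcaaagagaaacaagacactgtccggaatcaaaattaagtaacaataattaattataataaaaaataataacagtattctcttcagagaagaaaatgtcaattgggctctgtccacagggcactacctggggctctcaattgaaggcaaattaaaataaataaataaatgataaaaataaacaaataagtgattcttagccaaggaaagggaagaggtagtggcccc
Gabra6: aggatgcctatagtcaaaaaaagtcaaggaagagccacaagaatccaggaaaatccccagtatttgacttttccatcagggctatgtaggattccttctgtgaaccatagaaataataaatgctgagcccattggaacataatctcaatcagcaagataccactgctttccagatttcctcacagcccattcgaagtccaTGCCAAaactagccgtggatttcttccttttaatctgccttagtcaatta
Gabrg3: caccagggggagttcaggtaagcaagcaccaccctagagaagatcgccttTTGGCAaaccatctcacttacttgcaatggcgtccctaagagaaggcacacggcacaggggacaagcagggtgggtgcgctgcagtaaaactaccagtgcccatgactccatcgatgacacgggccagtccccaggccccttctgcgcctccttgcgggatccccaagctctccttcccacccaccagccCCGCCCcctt
The *Gabra2* sequence held 18 CpG dinucleotides and that of *Gabrg1* 1, against a median of 6 over the 32851 upstream sequences in the table. The GC box, GGGCGG, was found upstream of *Gabra2*, *Gabra4* and *Gabrg3* and in 32.7% of all upstream sequences. The nuclear factor I half-site, TTGGCA, was found upstream of *Gabra6* and *Gabrg3* and in 12.3% of all. The word of the TATA box, TATAAA, was matched upstream of *Gabra3* on the opposite strand only, as TTTATA, and on either strand in 12.4% of all. The distance of matches from the start was not weighed, so they are matches of words alone. The sequences of *Gabra5* and *Gabrg1* held none of the 3 words. *Gm9962*, on the plus strand of chromosome 7 from 57387272 to 57409941, also overlaps the end of *Gabra5* and starts 83 bases from *Gabrg3*, opposite base 194 of the printed sequence.

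Per length of gene, the member α subunit with the highest level differed between clusters, and *Gabra2* led most often. CPM was divided by the gene's span, since longer genes can give more nuclear UMIs, which was not tested here. On this scale *Gabra2* (α2) led the 5 member α subunits in 75 of the 120 clusters, *Gabra3* (α3) in 29, *Gabra5* (α5) in 14, *Gabra4* (α4) in 1 and *Gabra6* (α6) in 1. Of the 61 glutamatergic and 45 GABAergic clusters among the 120, *Gabra2* led in 45 and 24 and *Gabra3* in 7 and 16. In 38 of its 75 clusters *Gabra2* led in all 4 libraries, and *Gabra3* did so in 6 of its 29. The order depended on the scale, as *Gabra3* led in 69 clusters by CPM (29 glutamatergic, 30 GABAergic) and in 100 per kb of exon (47 and 41), where *Gabra2* led in 46 (30 and 13) and 9 (6 and 2). Over all neurons, the level per 100 kb of span was 106.6 for *Gabra2*, 67.1 for *Gabra3*, 29.0 for *Gabra4*, 69.5 for *Gabra5*, 13.0 for *Gabra6*, 33.9 for *Gabrg1* (γ1), 119.3 for *Gabrg3* (γ3) and 7.24 for *Gabrd* (δ), in CPM.

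Transcripts of 3 subunits had a higher level in astrocytes than in neurons. *Gabra2*, which encodes the α2 subunit of many synaptic receptors, stood at 308, 282, 416 and 364 CPM in the 4378 astrocytes and at 146, 143, 145 and 156 CPM in neurons. *Gabra4*, an α subunit that often pairs with δ, stood at 72.3, 98.3, 95.9 and 96.6 CPM in astrocytes and at 29.9, 21.9, 20.8 and 30.3 CPM in neurons. *Gabrg1*, a γ subunit known from glia as well as neurons, stood at 113, 106, 134 and 116 CPM in astrocytes and at 38.9, 28.8, 29.0 and 27.6 CPM in neurons. In each of these 3 genes every astrocyte value lay above every neuron value. The log2 ratio of the means was 1.22 for *Gabra2*, 1.82 for *Gabra4* and 1.92 for *Gabrg1*. The 3 genes were 3 of the 6 members compared, and 27.4% of the 12686 genes compared had non-overlapping libraries in this direction. *Gabrb1*, the β subunit gene next to *Gabra4*, was higher still in astrocytes, at 3797, 4421, 3587 and 3570 CPM against 604 to 650 CPM in neurons.

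The share of nuclei with a UMI depends on depth, and the median neuron had 8704 UMIs, the median astrocyte 3375.5 and the median oligodendrocyte 2460. *Gabra2* had a UMI in 52.5% of astrocytes (exact 95% interval 51.0 to 54.0) and 51.7% of neurons, and after thinning to 800 UMIs per nucleus in 20.7% and 10.6%. *Gabra4* had one in 23.5% of astrocytes and 16.4% of neurons, and *Gabrg1* in 30.1% and 16.6%. Oligodendrocytes, taken as the background from free RNA, had shares of 1.59%, 0.184% and 0.684% for the 3 genes. The astrocyte share of *Gabra3* (1.28%) was near that of oligodendrocytes (1.22%) and is read as background. For *Gabra5* the shares were 1.53% and 0.892% at unlike depths, and whether astrocytes exceed the background was not tested.

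**Figure D1:**
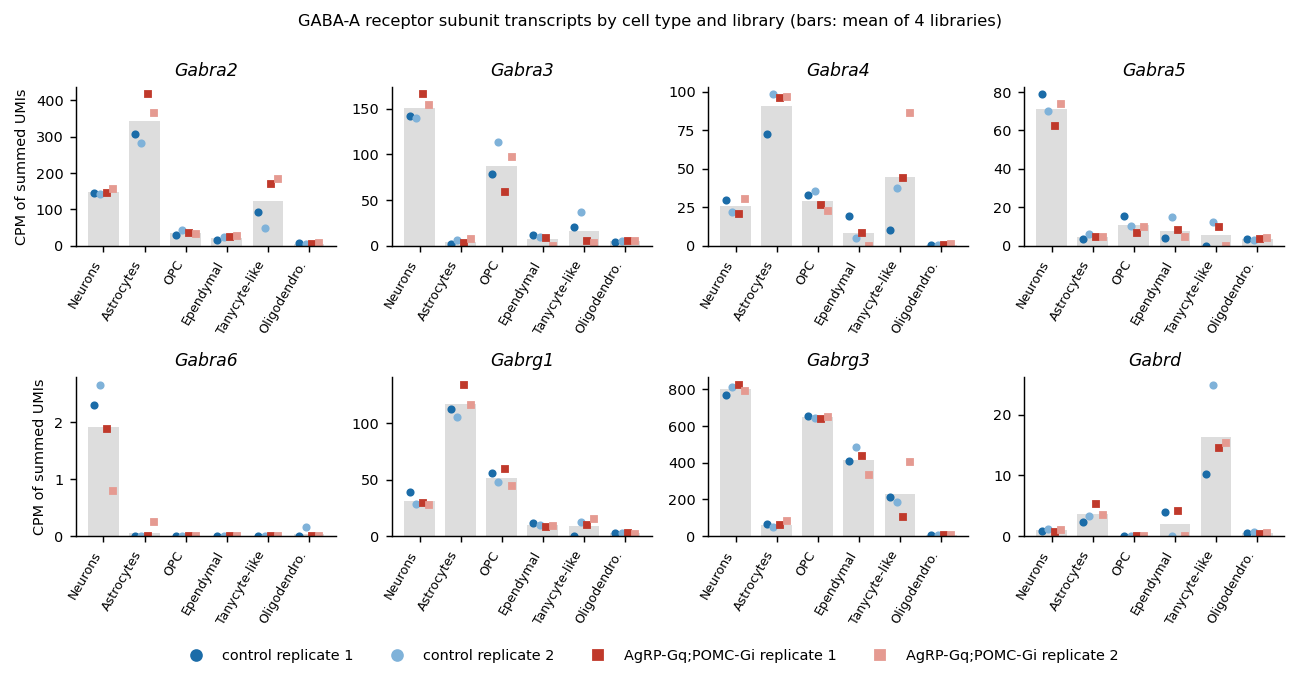
Level of each of the 8 subunits, in CPM of summed UMIs on a linear axis from 0, in 6 annotated cell types; bars give the mean of the 4 libraries and points the libraries (circles control, squares AgRP-Gq;POMC-Gi). Astrocyte points of *Gabra2*, *Gabra4* and *Gabrg1* all lie above the neuron points, whereas *Gabra3*, *Gabra5*, *Gabra6* and *Gabrg3* have their highest bar in neurons.

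The remaining subunits had their highest level in neurons, apart from *Gabrd*. *Gabra3*, an α subunit abundant in brainstem, stood at 142, 140, 166 and 154 CPM in neurons and at 59.2 to 113 CPM in oligodendrocyte precursors, with no overlap. *Gabra5* stood at 78.8, 70.1, 62.2 and 73.6 CPM in neurons and at 6.89 to 15.5 CPM in the precursors. *Gabrg3*, a γ subunit of lesser abundance in most of the brain, had a broader distribution, at 771, 811, 826 and 792 CPM in neurons, 639 to 655 CPM in precursors, 335 to 488 CPM in ependymal cells and 102 to 405 CPM in tanycyte-like cells. Its UMIs were found in 76.6% of neurons, 71.9% of precursors and 1.21% of oligodendrocytes. Of the members compared, *Gabrg1* alone was higher in precursors than in neurons without overlap, at 44.8 to 59.2 CPM against 27.6 to 38.9 CPM, where 21.5% of the 12494 genes compared were. In ependymal and tanycyte-like cells 0 of the members compared lay above neurons without overlap, against 26.5% and 19.2% of genes.

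*Gabra6* and *Gabrd* were nearly absent from the count. *Gabra6* stood at 2.31, 2.66, 1.88 and 0.795 CPM in neurons, and 0 of 784 precursors had a UMI, which allows a share of nuclei with a UMI of up to 0.383%. *Gabrd* stood at 0.893, 1.17, 0.731 and 1.02 CPM in neurons, with a UMI in 0.861% of them, and in 4.95% of the 202 tanycyte-like cells (exact 95% interval 2.399 to 8.92, 11 UMIs). At 800 UMIs per nucleus its share was 0.0826% in neurons and 0.0483% in oligodendrocytes. In neurons *Gabrd* was thus close to the background at this depth. Intervals cover counting error only.

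Across neuronal clusters the members ranged from broad to confined to 1 cluster (see the plot of ranked clusters). *Gabra3* and *Gabrg3* were the broadest, with a UMI in over 50% of nuclei in 101 and 104 of the 120 clusters. *Gabra2* passed that share in 69 clusters, *Gabra5* in 19, *Gabra4* in 4, *Gabrg1* in 2, *Gabra6* in 1 and *Gabrd* in 0. The highest cluster had 1.91 times the median cluster's level for *Gabra3*, 3.58 times for *Gabrg3*, 4.14 times for *Gabra2*, 5.76 times for *Gabra5*, 6.74 times for *Gabra4* and 21.1 times for *Gabrg1*. Neighbours in these orders rarely differed: in all 8 orders together only the first and second clusters of *Gabra6* and the second and the third of *Gabrg1* had non-overlapping libraries.

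**Figure D2:**
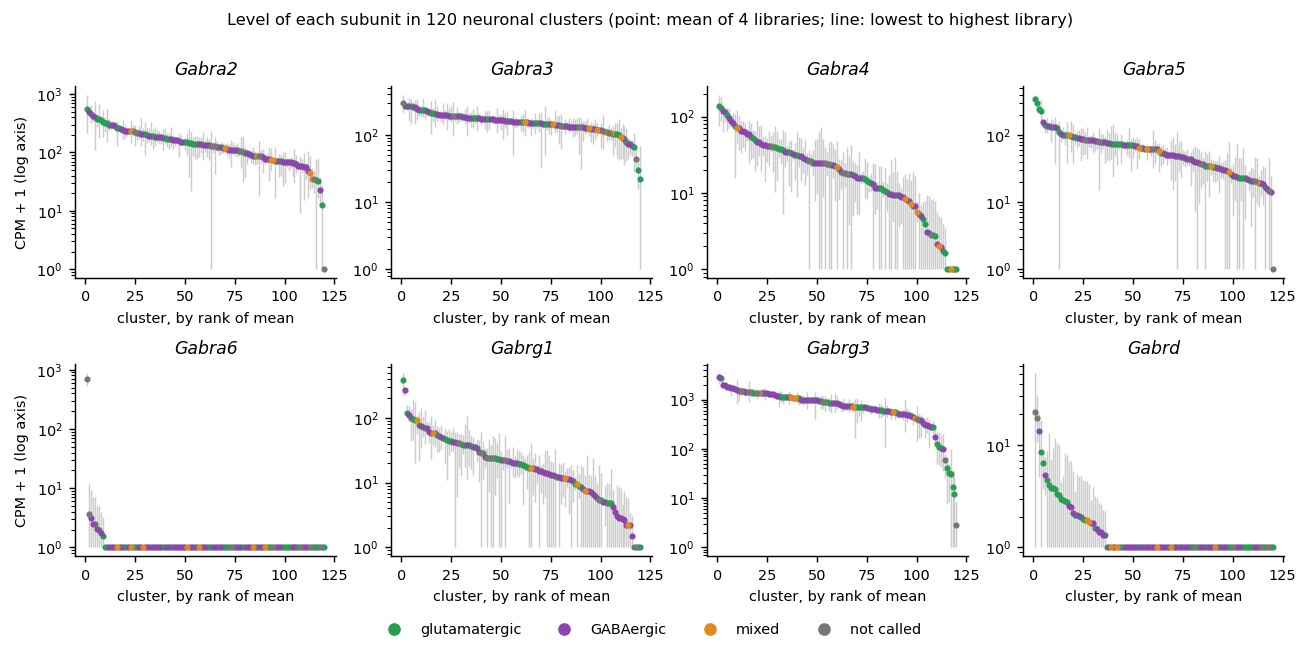
Mean level of each subunit in the 120 neuronal clusters, ranked from high to low (x axis) on a log axis of CPM + 1; lines run from the lowest to the highest library and colours give the transmitter class. *Gabra3* falls slowly, from 292 to 20.9 CPM, while *Gabra6* has 1 cluster at 700.3 CPM and the next at 2.65 CPM.

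*Gabra2* was highest in cluster 148 (named Ccdc172/Ebf2 by the authors), at 545, 968, 509 and 214 CPM, and was followed by cluster 59 (Kcnmb2/Sema3a) at 504, 548, 450 and 439 CPM and cluster 184 (Calcr/Shox2) at 366, 318, 654 and 459 CPM. These 3 overlapped, and cluster 148 had as few as 5 nuclei in a library. The lowest was cluster 104 (Gabra6/Fat2), with 0 UMIs of *Gabra2* in 94 nuclei, which allows a share of nuclei with a UMI of up to 3.19% (3 counts of the total). Cluster 183, outside the order because a library held 2 of its 26 nuclei and named here after its values were seen, had 1108, 946, 1300 and 838 CPM of *Gabra2* from 333 UMIs.

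*Gabra3* was highest in cluster 176 (Dkk2/Col25a1) at 390, 308, 212 and 256 CPM, in cluster 155 (Kcnh8/Arhgap6) at 299, 279, 244 and 261 CPM and in cluster 55 (Rab38/Ano1) at 281, 289, 272 and 235 CPM. Libraries of 44 other clusters overlapped the first. Cluster 72 (Ano2/Foxp2) had the lowest level, 7.35, 0, 66.8 and 9.45 CPM from 16 UMIs in 127 nuclei, although its median nucleus held 11859 UMIs.

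*Gabra4* was highest in cluster 117 (Ebf2/Nmu) at 157, 74.3, 191 and 120 CPM, cluster 63 (Ebf2/Th) at 180, 105, 85.6 and 137 CPM and cluster 162 (Chrdl1/Kcnh8) at 143, 139, 124 and 62.0 CPM. Only 4 clusters had a UMI in over 50% of nuclei, and 6 clusters had none, among them cluster 153 (Lmo3/Cpne4). *Gabra5* stood out in cluster 38 (Kcnh8/Maf) at 395, 314, 340 and 349 CPM, in cluster 146 (Rxfp1/Ebf2) at 373, 244, 381 and 216 CPM and in cluster 63 at 239, 232, 235 and 270 CPM, and its lowest cluster was 157 (Cnpy1/Adamts18) with 0 UMIs. The 3 highest clusters of *Gabra5* were glutamatergic. Cluster 63, which bears *Th*, the rate-limiting enzyme of catecholamine synthesis, was among the 3 highest for *Gabra4* and *Gabra5* and 8 of 120 for *Gabra2*, at 366.2 CPM.

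*Gabra6*, best known from granule cells of the cerebellum and cochlear nucleus, stood at 875, 530, 620 and 776 CPM in cluster 104. In the other ordered clusters its mean over the 4 libraries was at most 2.65 CPM, in cluster 176, where AgRP-Gq;POMC-Gi replicate 1 had 10.6 CPM from 1 UMI. Cluster 104 held 96.1% of all *Gabra6* UMIs of the ordered clusters, its name contains the gene, and 84.0% of its 94 nuclei had a UMI (exact 95% interval 75.05 to 90.8). *Gabrb2*, a β subunit, stood there at 655.1 CPM, first of the 120 clusters. *Gabrd* stood at 14.8, 14.7, 9.85 and 29.8 CPM, second of 120 from 5 UMIs. *Gabrg3* had 1 UMI, and *Gabra2* and *Gabrg1* had 0 in 94 nuclei. The granule cell markers *Fat2*, *Cbln1*, *Cbln3*, *Etv1*, *Barhl1*, *Neurod1* and *Pax6* were all highest in cluster 104 of the 120, as were *Lmx1a* and *Eomes*, known from unipolar brush cells, and the median nucleus held 3548.5 UMIs. Cluster 104 made up 0.810%, 1.28%, 0.839% and 0.220% of the neurons in the 4 libraries, and *Gabra6* in all neurons was highest and lowest in the same 2 libraries as this share.

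*Gabrg1* had 2 clusters well above the rest. It stood at 396, 228, 490 and 414 CPM in cluster 72 and at 283, 273, 227 and 278 CPM in cluster 89 (Necab1/Arhgap15), and the third, cluster 85 (Tfap2b/Glra3), had 99.3, 122, 101 and 158 CPM. Every library of cluster 89 lay above every library of cluster 85. Both clusters also had *Gabra2* and *Gabra4* among their high values, at 403.7 and 114.0 CPM in cluster 72 and 428.3 and 86.0 CPM in cluster 89, and little *Gabra3*, at 20.9 and 71.8 CPM. Cluster 72 supplied 76, 6, 6 and 39 nuclei, that is 3.08%, 0.219%, 0.162% and 1.07% of neurons, and *Gabrg1* in all neurons was highest in the same library, control replicate 1. Among the lowest, cluster 181 (Sntb1/Cpne4) had 0 UMIs.

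*Gabrg3* was highest in cluster 163 (Adamts18/Col25a1) at 2038, 3083, 3447 and 3198 CPM, cluster 148 at 2141, 3051, 3015 and 2943 CPM and cluster 132 (Npas1/Skor2) at 2410, 2012, 1824 and 1833 CPM, and all 65 nuclei of cluster 132 had a UMI. Cluster 104 was lowest, at 1.84 CPM. *Gabrd* was highest in cluster 157 at 0, 11.9, 19.8 and 49.7 CPM from 6 UMIs, in cluster 104, and in cluster 81 (Gbx1/Fgf10) at 15.7, 19.3, 3.86 and 12.4 CPM from 15 UMIs. In 84 clusters *Gabrd* had no UMI, and the libraries of the first cluster overlapped those of all others.

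Of the 6 members compared between glutamatergic and GABAergic neurons, 4 had non-overlapping libraries. Clusters were called by a 4-fold rule on *Slc17a6*, a vesicular transporter of glutamate, and *Slc32a1*, that of GABA and glycine. The rule gave 69 glutamatergic, 46 GABAergic, 7 mixed and 12 uncalled clusters. Glycinergic neurons were not set apart and fall in the class called GABAergic. *Gabra5* stood at 93.9, 80.6, 69.9 and 88.9 CPM in glutamatergic and 63.4, 61.4, 56.1 and 58.2 CPM in GABAergic neurons. *Gabra2* stood at 172, 165, 159 and 172 CPM in glutamatergic and 122, 123, 136 and 142 CPM in GABAergic neurons. *Gabrg1* was also higher in glutamatergic neurons, at 54.8, 28.0, 30.6 and 33.0 CPM against 21.8, 26.5, 26.1 and 21.4 CPM. The 3 genes had non-overlapping libraries, as 6.09% of the 12115 genes compared had in this direction, and the mean log2 ratios of GABAergic to glutamatergic were -0.47, -0.36 and -0.57. *Gabrg3* was higher in GABAergic neurons, at 786, 858, 919 and 817 CPM against 754 to 775 CPM, without overlap, as were 9.38% of genes, with a mean log2 ratio of 0.15. *Gabra3* (0.09) and *Gabra4* (0.19) overlapped. The ratio of *Gabrg1* was -1.33 in control replicate 1, whose share of cluster 72 was the highest, and -0.08, -0.23 and -0.62 in the others. Without that library its mean was -0.31, and with a 10-fold rule -1.24. With the 10-fold rule only *Gabra5* and *Gabrg1* kept non-overlapping libraries.

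Over the 120 clusters, *Gabrg3* was most like the gene that starts opposite it. Pearson's r of log2(mean CPM + 1), a description over clusters that share libraries and depth, was computed against the 12115 genes detected in 5% or more of the neurons. Among the 3 genes most like *Gabra5* were the glycine receptor gene *Glra1* (r = 0.62) and *Ldb2* (0.61). The gene most like *Gabrg3* was *Gm9962*, which starts opposite it (r = 0.81), followed by *6330403K07Rik* (0.73) and *N4bp2* (0.72). By ranks of CPM (Spearman's rho) these were 0.77, 0.52 and 0.46. The gene most like *Gabra2* was *Gabrb1* (r = 0.64), which lies beyond *Gabra4* on chromosome 5 and does not overlap *Gabra2*. It was followed by *Csmd1* (0.61) and *Cacng4* (0.60), and rho for the 3 was 0.58, 0.41 and 0.58. *Gabra4* was most like the calcium channel gene *Cacna1g* (0.61), *Camk2a* (0.58) and *Gabrb1* (0.58). For *Gabra4* and *Gabrb1* the overlap of the genes may let reads of one count for the other, and the part of this in r was not tested.

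**Figure D3:**
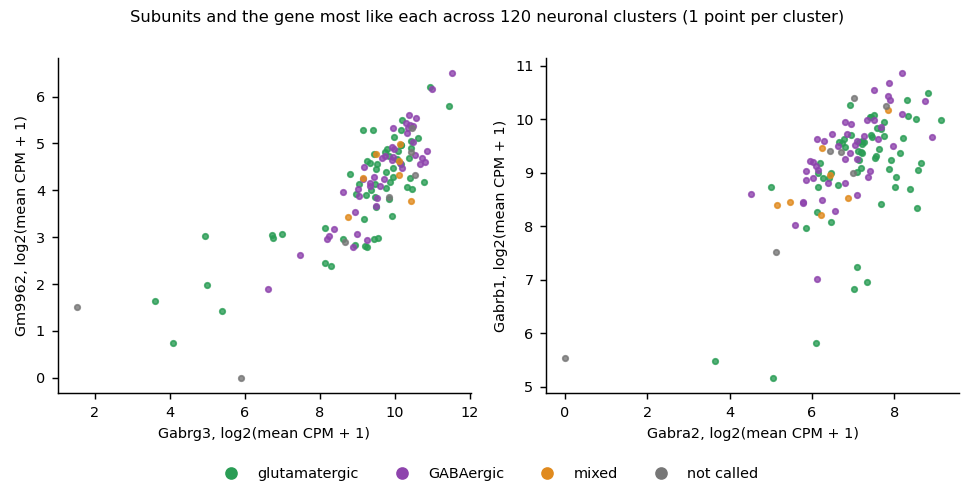
Each point is 1 of the 120 neuronal clusters, placed by log2(mean CPM + 1) of a subunit (x axis) and of the gene most like it (y axis), for *Gabrg3* (left) and *Gabra2* (right), coloured by transmitter class. *Gabrg3* rises with *Gm9962* (r = 0.81) and *Gabra2* with *Gabrb1* (r = 0.64), the last with more spread.

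*Gabra3* was most like *BC035947* (r = 0.58), *Ssbp2* (0.55) and *4833422C13Rik* (0.53), and *Gabrg1* most like *AW551984* (0.63), *Hap1* (0.63) and *Gm44644* (0.62). For *Gabra6* (*Jarid2* and *Syne1*, 0.52 and 0.49) and *Gabrd* (*Mgat5*, *Efr3a* and *R3hdm2*, 0.47, 0.45 and 0.43) the counts were sparse and r is no finding. Among members, r reached 0.4 for *Gabra2* with *Gabra4* (0.58), with *Gabrg1* (0.48) and with *Gabrg3* (0.46), and for *Gabra3* with *Gabrg3* (0.42). Without cluster 104, *Gabra2* with *Gabrg3* fell to 0.28 and *Gabra3* with *Gabrg3* to 0.35, while *Gabra2* with *Gabra4* stood at 0.62.

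No member differed between AgRP-Gq;POMC-Gi and control at an adjusted p under 0.05 in neurons. edgeR's quasi-likelihood test, with Benjamini-Hochberg adjustment over 12115 genes, called 0 of 6 members and 0 genes in all (0%), and 667 genes (5.51%), 1 of them a member, had an unadjusted p under 0.05. That member was *Gabra3*, whose neuron values of 142 and 140 CPM in control and 166 and 154 CPM in AgRP-Gq;POMC-Gi did not overlap. Its log2 fold was 0.25 ± 0.09 (SE, adjusted p = 0.81 by edgeR). *Gabra3* is X-linked. The libraries with 507, 319, 541 and 16.2 CPM of *Xist* had 142, 140, 166 and 154 CPM of *Gabra3*, and a link between the genes was not tested. The difference of *Gabra3* was 0.23 ± 0.11 in glutamatergic and 0.26 ± 0.09 in GABAergic neurons (adjusted p = 0.847 and 0.912, edgeR). Without AgRP-Gq;POMC-Gi replicate 2 the difference in neurons was 0.35 and was called (adjusted p = 0.00914, edgeR), where 16.6% of all genes were called in place of 0%.

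The other members differed less in neurons, and 4 of the 6 differences were positive. They were 0.11 ± 0.07 for *Gabra2*, 0.03 ± 0.19 for *Gabra4*, -0.08 ± 0.09 for *Gabra5*, -0.20 ± 0.15 for *Gabrg1* and 0.09 ± 0.10 for *Gabrg3* (log2 fold ± SE, edgeR). The control and AgRP-Gq;POMC-Gi libraries of each of these 5 overlapped. Cluster 72, highest in *Gabrg1*, made up 3.08% and 0.219% of control neurons and 0.162% and 1.07% of AgRP-Gq;POMC-Gi neurons. Its part in the difference of *Gabrg1* was not tested. DESeq2 called 0 members in neurons, where it called 2 genes higher and 8 lower. The median member difference was 0.06, and that of all genes -0.0003. Sums over neurons mix level with the share of each cluster, and these shares differed between libraries. Cluster 49, for example, supplied 9, 18, 72 and 57 nuclei, and neurons were 25.4%, 27.2%, 38.0% and 36.5% of all nuclei kept. The part of this in the differences was not tested.

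Within classes, edgeR also called 0 members of 6 among 12150 genes in glutamatergic and 12097 in GABAergic neurons, where 0 genes were called, and 5.57% and 4.98% had an unadjusted p under 0.05. *Gabra2* in GABAergic neurons, at 122 and 123 CPM in control and 136 and 142 CPM in AgRP-Gq;POMC-Gi, was higher by 0.24 ± 0.07 (log2, adjusted p = 0.912, edgeR), and in glutamatergic neurons differed by 0.03 ± 0.08. The test of the difference between the classes gave 0.21 ± 0.06 for *Gabra2* (adjusted p = 0.987, edgeR) and called 0 of 12115 genes, 4.69% of which had an unadjusted p under 0.05. Leaving out AgRP-Gq;POMC-Gi replicate 2 led to calls of *Gabra2* (0.25), *Gabra3* (0.33) and *Gabrg3* (0.27) in GABAergic neurons, where it led to calls of 7.46% of all genes. It also led to a call of *Gabra3* (0.37) in glutamatergic neurons, where 4.55% of genes were called, and to a called difference between classes for *Gabrg1* (0.53), as for 0.429% of genes. Without control replicate 2 the difference of *Gabrg1* in glutamatergic neurons was -0.73. That leaves control replicate 1, with 3.08% of its neurons in cluster 72, a glutamatergic cluster high in *Gabrg1*. The AgRP-Gq;POMC-Gi libraries had 0.162% and 1.07% there, and the part of this was not tested.

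**Figure D4:**
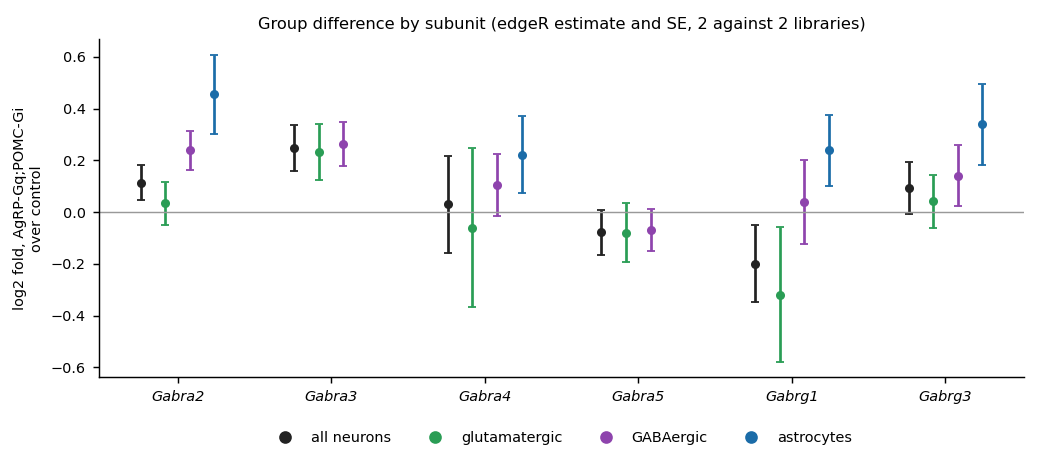
Log2 fold of AgRP-Gq;POMC-Gi over control (y axis; points are edgeR estimates, bars 1 SE) for the 6 subunits tested in all neurons, both transmitter classes and, where tested, astrocytes. *Gabra3* lies above 0 in all neurons and both classes and *Gabra2* in astrocytes is highest at 0.46, with 0 of the differences called.

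In astrocytes *Gabra2* had the largest difference of the members. It stood at 308 and 282 CPM in control and at 416 and 364 CPM in AgRP-Gq;POMC-Gi, without overlap, a log2 fold of 0.46 ± 0.15 (adjusted p = 0.268, edgeR), where 53 of 8462 genes (0.626%) were called. *Gabrg1* (0.24 ± 0.14), *Gabra4* (0.22 ± 0.15) and *Gabrg3* (0.34 ± 0.16) were also positive in astrocytes and not called. With the replicate number as a block, *Gabra2* was called at 0.45 (adjusted p = 0.0372, edgeR), where 5.03% of astrocyte genes were called, and without AgRP-Gq;POMC-Gi replicate 2 at 0.63 (adjusted p = 0.0309, edgeR), where 127 of the 8462 genes were. In tanycyte-like cells *Gabra2*, from 108 UMIs, stood at 92.2 and 49.96 CPM in control and at 170 and 184 CPM in AgRP-Gq;POMC-Gi, with a log2 fold of 1.46 ± 0.49 (adjusted p = 0.687, edgeR), where 0 of 8739 genes were called and 6.10% had an unadjusted p under 0.05, against 10.3% in astrocytes. *Gabra4* there, from 41 UMIs, stood at 10.2 and 37.5 CPM in control and at 43.7 and 85.8 CPM in AgRP-Gq;POMC-Gi, a log2 fold of 1.68 ± 0.75 (adjusted p = 0.771, edgeR). Over the 12 non-neuronal types tested, 16 tests of members gave 0 calls and 3 unadjusted p under 0.05, where 0.126% and 5.73% of the 88959 pairs of type and gene had one. The 3 were *Gabra2* in astrocytes and *Gabra2* and *Gabra4* in tanycyte-like cells.

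In single clusters, 0 of 674 tests of members were called by edgeR after adjustment within a cluster, or over all pairs of cluster and gene. Of the 1396489 pairs 0.0387% and 0.0279% were called in these ways, and DESeq2 called 0 members. An unadjusted p under 0.05 was reached by 66 of the 674 tests (9.79%), against 4.51% of all pairs. The 66 came from the same 4 libraries and are not independent. They were 17 for *Gabrg3*, 13 each for *Gabra2* and *Gabra3*, 10 for *Gabra4*, 7 for *Gabrg1* and 6 for *Gabra5*. All 13 of *Gabra3* were positive, its difference was positive in 90 of 120 clusters and its median over clusters was 0.25, while the median over clusters of all genes' medians was 0.01. *Gabra2* was positive in 74 of 119 clusters (median 0.15) and *Gabrg3* in 68 of 119 (median 0.05). The lowest adjusted p over all pairs was 0.184 for *Gabra4* in cluster 165 (Hcrtr2/L3mbtl4), which rested on 14 UMIs, listed as 0, 0, 31.1 and 63.8 CPM. In cluster 76, *Gabra2* stood at 550 and 298 CPM in control and at 274 and 148 CPM in AgRP-Gq;POMC-Gi (log2 fold -0.90 ± 0.27, adjusted p = 0.574 over all pairs, edgeR), and without control replicate 2 this was called within the cluster (-1.30, adjusted p = 0.00414, edgeR), as were 0.273% of its genes.

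The lists of related genes gave 0 calls in neurons as well. Of the β subunits, *Gabrb1* had a log2 fold of 0.07 and *Gabrb2* of 0.05. Of the 12 genes of assembly and anchoring all were tested, 5 were positive and the median was -0.05, from -0.26 for *Gabarap*, which takes part in receptor transport, to 0.16 for *Gphn* (gephyrin, the postsynaptic scaffold). The 8 genes of GABA-B receptors and GABA handling ran from -0.19 for *Slc6a11* to 0.09 for *Gad2*. The chloride transporters, which set the direction of chloride flow, had differences of -0.22 (*Slc12a2*) and -0.02 (*Slc12a5*). Adjusted p was 0.81 or above for every gene tested in these lists (edgeR).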

How the data were processed

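Single nuclei of the hindbrain portion that holds the area postrema and the nucleus of the solitary tract were sequenced with the 10x Genomics 3′ kit. Reads were mapped to GRCm38 by the authors with Cell Ranger 7.0.0, followed by Seurat 4.3.0 (submitters' processing notes). Raw UMI counts per gene and nucleus were deposited, with the authors' table of nuclei, clusters and cell types. It also gives the percent of mitochondrial UMIs, which the authors used to filter nuclei. Their filter, their scDblFinder doublet step and their annotations were taken over unchanged. The matrix that joins the libraries was not used here.

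UMIs were summed per library and cluster, class or cell type and scaled to CPM. Groups were compared with edgeR 4.0.16 (quasi-likelihood test, TMM factors, genes detected in 5% or more of the nuclei, Benjamini-Hochberg adjustment), with DESeq2 1.42.0, no TMM, no gene filter, filterByExpr, a replicate block and each library left out as alternatives, in R 4.3.3. The power of these tests to call differences of the sizes reported here was not tested. Thinned shares are expected values without sampling. Named were all 8 members, the 3 highest clusters and the lowest of each, the 3 genes most like each, and, of the gene lists, genes that passed the test and up to 5 others; some genes and cluster names are not reported here. The members, lists and tests were chosen with earlier results of these data known.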

Additional observations from a re-analysis of the deposited data

How the results depend on the processing

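In neurons, transmitter classes and clusters, 0 members were called without TMM factors, with DESeq2, without a gene filter, with filterByExpr, with the replicate block and, for clusters, in the 77 with at least 10 nuclei in every library. In non-neuronal types the replicate block gave 1 call (*Gabra2* in astrocytes) and no gene filter gave 1 (*Gabrg3* in fibroblasts, 3.06, adjusted p = 0.023, edgeR, where 0.214% of genes were called). Leaving out each library, which leaves 1 library against 2 and assumes that the lone one varies like the others, gave 0 to 1 calls in neurons, 0 to 4 in the classes, 1 to 6 in the clusters, 0 to 1 in non-neuronal types and 0 to 1 for the difference between classes. Leaving out AgRP-Gq;POMC-Gi replicate 2 gave 12 calls in neurons, classes, clusters and types together, the other libraries 3 (control replicate 1), 4 (control replicate 2) and 1. Over all genes in neurons, where 0 were called, the replicate block called 45 higher and 123 lower, DESeq2 2 and 8, no gene filter 1 and 0, filterByExpr 1 and 0, and leaving out the libraries, in the order above from AgRP-Gq;POMC-Gi replicate 2, 957 and 1060, 0 and 3, 4 and 13, and 23 and 6. Of pairs of cluster and gene, 541 were called, against 48 with DESeq2, 115 with filterByExpr, 1102 without a gene filter, 789 with the block and 746 to 1362 with a library left out. The labels name no batch behind the replicate numbers. In neurons, the deviations of log2 CPM from the group mean correlated by 0.18 between same-numbered libraries. This is a single value, since with 2 libraries per group both pairs give the same one.

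Signs turned for small differences in neurons, for *Gabra4* without TMM factors (-0.020) and when either replicate 2 was left out, for *Gabra5* and *Gabrg1* when control replicate 1 was. With a library left out *Gabra4* ran from -0.20 (AgRP-Gq;POMC-Gi replicate 2; -0.18 for control replicate 2) to 0.28, *Gabra5* from -0.16 to 0.011 and *Gabrg1* from -0.40 to 0.038. The 10-fold class rule left 2 members with non-overlapping classes in place of 4, and Spearman's rho left 2 pairs of members at 0.4 or above in place of 4. The log2 ratio of astrocytes to neurons was 0.02, 0.52 and 0.86 for *Gabra2*, *Gabra4* and *Gabrg1* by the share of nuclei with a UMI without thinning, an alternative chosen after seeing the data, as were leaving out cluster 104 and the other length scales. The cell type with the highest level was the same for all 8 members with log-normalized values, thinned shares and each library left out, whereas the highest cluster of *Gabra2*, *Gabra3*, *Gabra4* and *Gabrd* changed in some. The causes were not tested. *Gabra6* and *Gabrd* were detected in too few neurons to pass the gene filter over all neurons. In single clusters *Gabra6* was tested in cluster 104 (log2 fold -0.03) and *Gabrd* in 6 clusters (median -0.27), with 0 called.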
